A study of Homo sapiens with 36 samples.

Results

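Late DNA damage response-dependent senescence (DDR-Sen) was compared with early DDR-Sen in WI-38 cells, a normal human diploid fibroblast strain derived from lung. The late group was the 6 small RNA libraries collected at D6, D8 and D16, and the early group was the 6 libraries collected at D0, D1 and D2, so 12 of the 36 libraries of the series entered the comparison. The libraries were chosen by their labelled day alone. All 12 came from cells given doxorubicin (DXR), a topoisomerase II poison that breaks DNA, for about a day and then washed and kept in medium without it, and the day counts from the washout. The D0 libraries belong to the end of the exposure, and the study places them before the washout in one passage and counts from it in another. Every time point had 2 biological replicates. No untreated library was used in the test, so the comparison describes the change from the first days of DDR-Sen to the later ones. The first days are its baseline, and a difference can come from either group. Untreated proliferating cells (Ctrl), the D3 and D4 libraries of the same series, and PMD-Sen cells, in which sodium dodecyl sulphate (SDS) damaged the plasma membrane, served as references.

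A microRNA (miRNA) is a short RNA cut from a hairpin as a 5p or a 3p arm and loaded into Argonaute. It pairs through its seed, the stretch from base 2 to base 8, with sites in messenger RNAs and lowers their output, so miRNAs with one seed share most targets. Many miRNAs are cut in groups from one long transcript. In senescent fibroblasts the p53 and RB pathways hold the cell cycle, E2F and MYC activity is low, and a secretory programme driven largely by NF-kappaB develops over days.

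RefSeq held an entry for 302 of the 332 tested miRNAs. The mature sequences of the miRNAs that carried the largest or best measured differences are given from its GRCh38.p14 annotation, 5′ to 3′, with the seed in capitals. The first set is the members of the miR-17 clusters and the miR-15/16 family, shown because several share a seed and were lower together.
miR-20a-5p: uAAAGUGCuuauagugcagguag
miR-93-5p: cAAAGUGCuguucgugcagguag
miR-92a-3p: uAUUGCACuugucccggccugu
miR-18a-5p: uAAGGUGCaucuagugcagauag
miR-16-5p: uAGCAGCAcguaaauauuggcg
miR-15b-5p: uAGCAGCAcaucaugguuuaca

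The next set is the other miRNAs lower in late cells that the results turn on, no pair of which shares a seed.
miR-155-5p: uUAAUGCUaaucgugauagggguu
miR-146a-5p: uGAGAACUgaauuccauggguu
miR-143-3p: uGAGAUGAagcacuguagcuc
miR-7-5p: uGGAAGACuagugauuuuguuguu
miR-132-5p: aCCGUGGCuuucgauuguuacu
miR-27a-5p: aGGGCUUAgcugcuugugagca

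The last set is miRNAs higher in late cells. miR-23a-3p is printed beside miR-23b-3p because both carry the seed UCACAUU and lay on opposite sides of 0.
miR-664a-3p: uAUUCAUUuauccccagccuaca
miR-432-5p: uCUUGGAGuaggucauugggugg
miR-127-3p: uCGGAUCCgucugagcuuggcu
miR-374b-5p: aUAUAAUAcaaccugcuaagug
miR-23b-3p: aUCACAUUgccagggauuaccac
miR-23a-3p: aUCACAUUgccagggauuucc

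The early libraries held 311044 to 1010186 counts (median 467388.5) and the late libraries 323230 to 558758 (median 447689.5). The 10 most abundant miRNAs took 51.0% to 56.9% of an early library and 54.3% to 56.3% of a late one. A count of 3 corresponded to at most 10.2 CPM (counts scaled to one common library size), which was the floor of detection. Between the replicates of a time point, log2 CPM had r of 0.978 at D0 to 0.987 at D1, and the chi-square per degree of freedom was 7.69 to 43.6, so no pair was a repeat of one library and the spread between replicates exceeded counting error. The labelled cell type was checked against marker miRNAs. The fibroblast markers miR-21-5p, miR-199a/b, miR-214-3p, miR-143-3p and miR-145-5p summed to 58439 to 130565 CPM over the 12 libraries, mostly miR-21-5p. The summed blood markers had 282 to 610 CPM early and 402 to 861 CPM late, nearly all of it miR-486-5p, while miR-451a, miR-223-3p and miR-150-5p had 10, 6 and 6 counts over all 12 libraries together. The epithelial markers summed to 47.7 to 99.7 CPM early and 30.6 to 71.9 CPM late, mostly miR-200c-3p. The liver, muscle and neuron markers summed to 74.9 to 197 CPM early and 35.2 to 84.0 CPM late, mostly miR-122-5p. In bulk RNA, fewer cells of a kind and less of a miRNA per cell cannot be told apart.

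Of 1508 miRNAs listed, 332 passed the low-count filter, and these held at least 99.8% of the counts of each library. With quasi-likelihood tests in edgeR, at a Benjamini-Hochberg adjusted p of 0.05, 51 miRNAs were higher in late DDR-Sen (15.4% of those tested) and 65 were lower (19.6%), together 34.9%. The median log2 difference over all tested miRNAs was −0.03. By the study's own thresholds, p below 0.05 without adjustment and a change of more than 1 on the log2 scale either way, there were 9 miRNAs higher (2.71%) and 26 lower (7.83%). Differences of at least 2-fold were therefore mostly decreases, and among the calls at adjusted p 7 higher and 26 lower miRNAs reached that size. The libraries of the early and late groups did not overlap at all for 24 higher (7.23%) and 24 lower (7.23%) miRNAs. DESeq2 on the same libraries called 53 higher and 62 lower, of which 109 were among the 116 edgeR calls. The called miRNAs made up a visible part of the library. The direction of the shares below was fixed by the calls, made in these same libraries, and gives them no further support. Those called higher together took 9.00% to 10.5% of an early library and 13.3% to 14.6% of a late one, and those called lower took 29.2% to 36.5% of an early library and 22.4% to 28.3% of a late one.

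**Figure D1:**
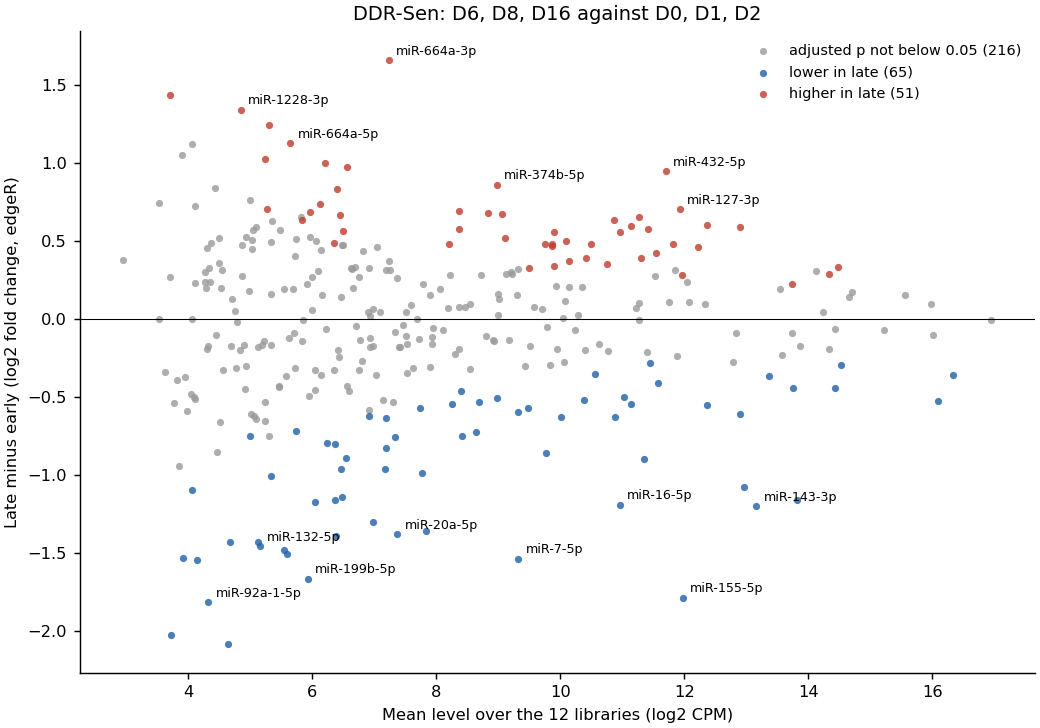
Each point is 1 of the 332 tested miRNAs, with its mean level over the 12 libraries on the x axis (log2 CPM) and the late minus early log2 fold change on the y axis; red marks the 51 higher and blue the 65 lower at adjusted p. The points below −1 outnumber those above 1, and among abundant miRNAs miR-155-5p, miR-143-3p and miR-92a-3p lie at −1.79, −1.20 and −1.16.

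The clearest decrease was in the miR-17 clusters, the miR-17-92 transcript and its paralogues miR-106b-25 and miR-106a-363, which MYC and E2F factors switch on and whose products restrain CDKN1A, BCL2L11 and other brakes on proliferation. Of 20 listed members 13 were tested, 12 of these were lower and none was higher, against 19.6% lower among all tested miRNAs. Their median log2 difference was −1.36. The summed level of the members was 22006 to 26479 CPM in the early libraries and 7560 to 15919 CPM in the late ones, with no overlap, and it was 27499 to 29366 CPM in Ctrl. Most of this sum was miR-92a-3p. The fall of the sum continued through the late phase, with means of 15354 CPM at D6, 13002 at D8 and 8565 at D16. The 4 tested miRNAs with the seed AAAGUGC (miR-17-5p, miR-20a-5p, miR-93-5p and miR-106b-5p) were all lower, by a median of −1.13 on the log2 scale.

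miR-92a-3p, the most abundant member, is cut from the miR-17-92 transcript MIR17HG on chromosome 13 (chr13:91351361-91351382, plus strand, in an exon of the host) and from a copy on chromosome X, and the counts do not separate the copies. It had 16982 CPM in the lowest, 20157 in the median and 21285 in the highest early library, and 5235, 10304 and 12414 CPM in the late ones. Every late library lay below every early one. It fell 2.23-fold (log2 −1.16 ± 0.09 SE, adjusted p 6.23e-08 by edgeR, 6 against 6 libraries). miR-20a-5p, from the same transcript (chr13:91351072-91351094), had 164, 241 and 279 CPM early and 63.2, 94.1 and 136 CPM late and fell 2.61-fold (log2 −1.38 ± 0.17). The low arm miR-92a-1-5p (chr13:91351324-91351346), which belongs to a single locus, had 20.3, 28.8 and 44.9 CPM early and 3.69, 8.77 and 16.3 CPM late. It fell 3.52-fold (log2 −1.81 ± 0.40, adjusted p 0.00178 by edgeR), although the lowest late libraries were under the floor of 3 counts. miR-18a-5p gave the largest decrease of the group, log2 −2.08 ± 0.54, but its late libraries ran from 0 to 40.8 CPM and overlapped the early range of 19.3 to 59.9 CPM, and the difference was −3.58 without replicate 1 of D16. miR-18a-3p (log2 −2.03 ± 0.62) lost its call without replicate 2 of D0 (log2 −1.31, edgeR adjusted p 0.149) and without replicate 1 of D2 (log2 −1.80, edgeR adjusted p 0.12), and was −3.25 without replicate 2 of D16.

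miR-93-5p lies inside MCM7, a replication helicase gene, within the miR-106b-25 cluster on chromosome 7 (chr7:100093815-100093837, minus strand). It had 2801, 3338 and 3999 CPM early and 1538, 1894 and 2161 CPM late, with no overlap, and fell 1.86-fold (log2 −0.90 ± 0.10, adjusted p 3.86e-06 by edgeR). In the same cluster miR-106b-3p fell by 0.83, miR-106b-5p by 0.63 and miR-25-3p by 0.51 on the log2 scale. The scarce arm miR-25-5p fell by 1.55 (SE 0.51, edgeR adjusted p 0.0252), from a mean of 26.4 to 9.01 CPM. The exception among the 13 was miR-93-3p, with a log2 difference of 0.05 ± 0.38. The miR-106a-363 transcript was hardly detected, since miR-106a-5p, miR-18b-5p, miR-20b-5p and miR-363-3p had 12, 0, 1 and 4 counts over the 12 libraries and were not tested.

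The miR-15/16 family, which targets cyclins, CDK6 and BCL2, was also lower. Of 7 listed members 4 were tested, 3 fell (against 19.6% of all tested) and none was higher. miR-16-5p is made from 2 hairpins, in an intron of the lncRNA DLEU2 on chromosome 13 (chr13:50049027-50049048) and in an intron of SMC4, a condensin gene, on chromosome 3 (chr3:160404754-160404775). It had 1811, 2773 and 3835 CPM early and 1008, 1286 and 1375 CPM late, and fell 2.28-fold (log2 −1.19 ± 0.12, adjusted p 9.71e-07 by edgeR) with no overlap. miR-15b-5p and miR-16-2-3p, both cut from the SMC4 intron, fell by 0.57 and 1.48 on the log2 scale, the latter by 0.99 without replicate 1 of D0. miR-15a-5p, from the DLEU2 side, had a log2 difference of −0.50 ± 0.29 and did not pass (edgeR adjusted p 0.19). Within the seed AGCAGCA, 2 of 4 tested miRNAs were called, and miR-424-5p had a log2 difference of −0.11. The cluster of miR-424, miR-503, miR-542 and miR-450 on chromosome X, which is induced when some cells leave the cycle, had no called member among 7 tested, with a median of −0.19.

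**Figure D2:**
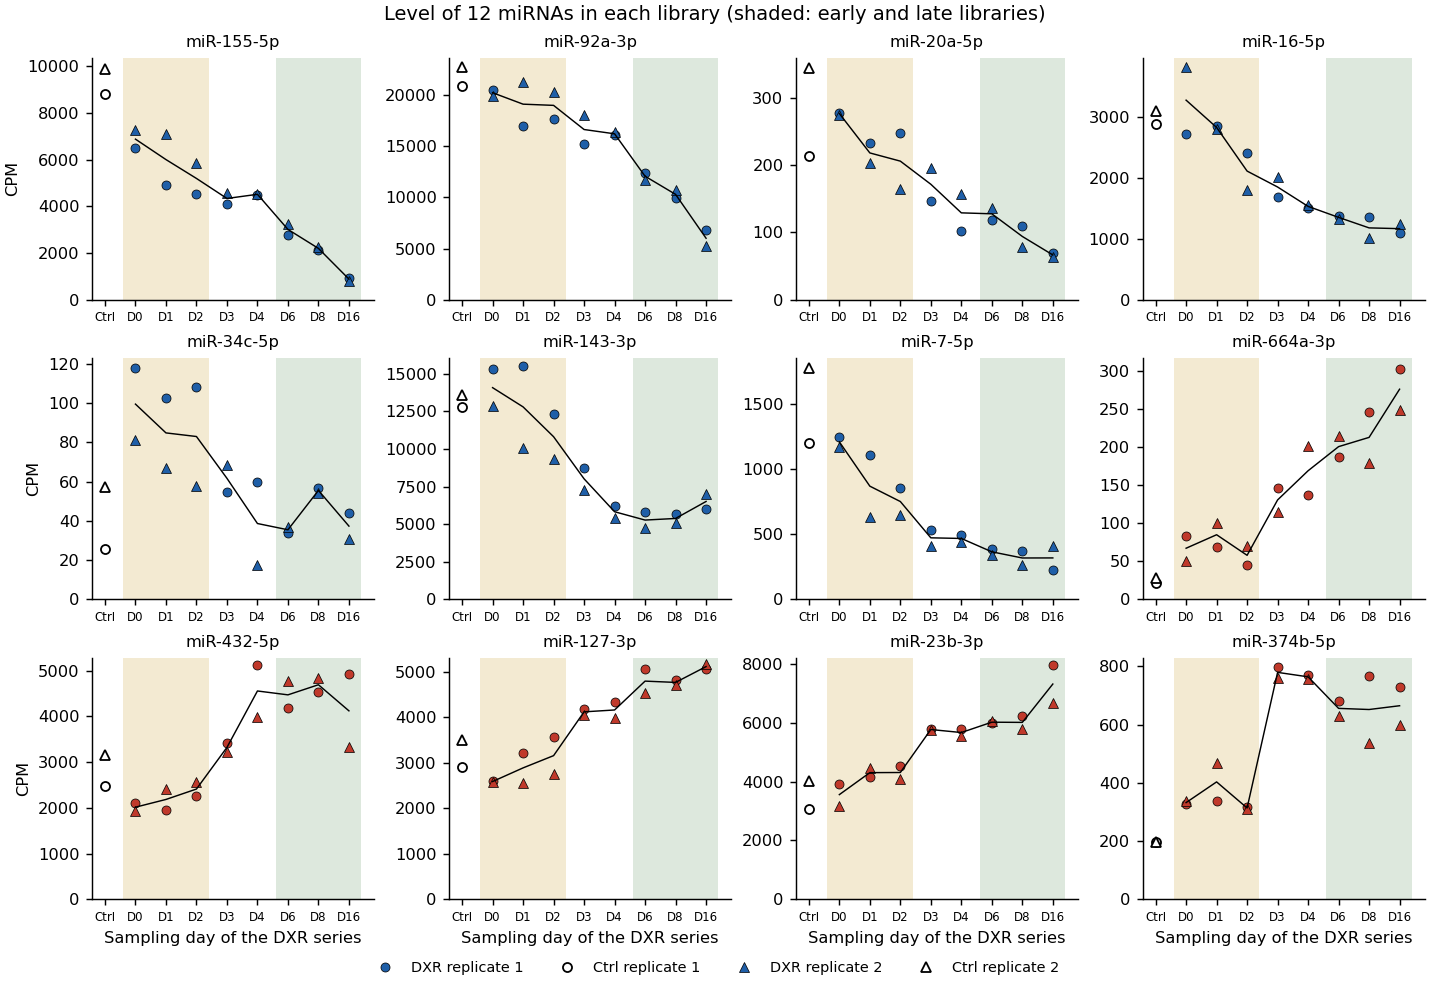
Level in CPM (y axis, linear from 0) of 12 miRNAs in each of the 16 DXR libraries and the 2 Ctrl libraries, by sampling day (x axis, equal steps); circles and triangles are replicates 1 and 2, the line joins the means, and the shaded bands are the early and late libraries. miR-155-5p and miR-92a-3p were lowest at D16, with means of 881 and 6009 CPM, whereas miR-374b-5p had its highest mean, 779 CPM, at D3.

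miR-155-5p, an NF-kappaB-induced miRNA of inflammatory signalling that the study followed up, had the most significant decrease of all tested miRNAs. It lies in an exon of the lncRNA MIR155HG (chr21:25573983-25574006, plus strand). The early libraries held 4542, 6161 and 7269 CPM (lowest, median, highest) and the late ones 814, 2195 and 3248 CPM, so all late libraries were below all early ones. It fell 3.45-fold (log2 −1.79 ± 0.11 SE, adjusted p 1.25e-09 by edgeR). The time point means descended from 6875 CPM at D0 through 5192 at D2 and 3007 at D6 to 881 at D16, and Ctrl had 9355 CPM. The related brake on NF-kappaB signalling miR-146a-5p (chr5:160485372-160485393, in an exon of MIR3142HG) was less abundant, at 28.9, 79.5 and 92.9 CPM early and 13.7, 26.9 and 33.7 CPM late. It fell 2.84-fold (log2 −1.50 ± 0.26, adjusted p 0.000287 by edgeR), with the lowest early library inside the late range. miR-146b-5p, which carries the same seed GAGAACU from chromosome 10, had 1174 CPM early and 1402 CPM late in the median and a log2 difference of 0.21 ± 0.13 (edgeR adjusted p 0.209). Of the 4 tested miRNAs of the miR-146 and miR-155 list, 2 were lower, against 19.6% of all tested, and none was higher.

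All 7 tested fibroblast marker miRNAs were called lower, against 19.6% of all tested miRNAs, with a median log2 difference of −0.63. Their sum was 86823 to 130565 CPM early and 58439 to 94079 CPM late, and these ranges overlapped through 1 late library, replicate 2 of D16. The mean sum was 86128 CPM in Ctrl, 106590 at D0 and 110445 at D1. It was 69073 CPM at D6 and 65407 at D8, and at D16, with 85445 CPM, it was near the Ctrl mean again. miR-143-3p and the miR-145 arms, which favour contractile differentiation of mesenchymal cells, are cut from the lncRNA CARMN on chromosome 5 and were lower in 3 of 3 tested. miR-143-3p (chr5:149428978-149428998) had 9343, 12565 and 15518 CPM early and 4746, 5747 and 6999 CPM late, and fell 2.30-fold (log2 −1.20 ± 0.13, adjusted p 2.35e-06 by edgeR) without overlap. miR-145-5p fell by 0.86 and miR-214-3p by 0.41 on the log2 scale. miR-199b-5p had 68.9, 95.7 and 109 CPM early and 16.3, 24.4 and 54.4 CPM late, a 3.18-fold decrease (log2 −1.67 ± 0.26), whereas its close relative miR-199a-5p fell by 0.63. These relatives share most of their sequence, so reads may have been split between them. miR-21-5p, a growth and survival miRNA and among the 5 most abundant here, had 66869, 76336 and 103008 CPM early and 45530, 59970 and 79271 CPM late. It fell 1.44-fold (log2 −0.52 ± 0.13, adjusted p 0.00428 by edgeR), with overlap, and did not pass when all 36 libraries shared the fit (edgeR adjusted p 0.0866). Its log2 difference was −0.34 without replicate 1 of D1.

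Among the p53-induced miRNAs, 3 of 6 tested were lower (19.6% of all tested), none was higher (15.4%) and the median was −0.65. miR-34c-5p, a p53 target that represses cell-cycle genes, had 57.9, 91.7 and 118 CPM early and 30.6, 40.5 and 56.7 CPM late. It fell 2.25-fold (log2 −1.17 ± 0.24, adjusted p 0.00109 by edgeR) with no overlap, and the late level was close to that of Ctrl, 41.4 CPM, while the early level was above it. miR-194-5p and miR-192-5p fell by 0.80 and 0.72. miR-34a-5p, the most abundant of the group and a direct p53 target, had 415, 609 and 715 CPM early and 434, 557 and 660 CPM late against 352 CPM in Ctrl, and its log2 difference was −0.13 ± 0.16 (edgeR adjusted p 0.527).

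Further decreases were found in miRNAs outside the lists above. miR-7-5p, a repressor of EGFR signalling, is cut among others from HNRNPK on chromosome 9 (chr9:83969811-83969834). It had 633, 981 and 1249 CPM early and 225, 357 and 414 CPM late, and fell 2.90-fold (log2 −1.54 ± 0.18, adjusted p 3.86e-06 by edgeR). Its means were 753 CPM at D2, 474 at D3 and 319 at D16. The CREB-responsive pair miR-132 and miR-212 lies on chromosome 17, and 4 of its 4 tested arms were lower (19.6% of all tested). miR-132-5p (chr17:2049965-2049986) had 40.2, 52.4 and 62.9 CPM early and 9.78, 20.1 and 28.7 CPM late and fell 2.75-fold (log2 −1.46 ± 0.27, adjusted p 0.000515 by edgeR). miR-122-5p, the main liver miRNA, was low but fell from a median of 119 to 46.9 CPM (log2 −1.39 ± 0.30, adjusted p 0.00173 by edgeR), and it was the single tested member of the list of liver, muscle and neuron markers. These libraries held 467 counts of it in all, and Ctrl had 56.5 CPM.

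The paralogous clusters of miR-23, miR-27 and miR-24 differed in their called arms. The chromosome 19 cluster, cut from the lncRNA MIR23AHG, had 4 of 5 tested arms lower (19.6% of all tested). miR-27a-5p (chr19:13836487-13836508, minus strand) had 136, 173 and 228 CPM early and 59.4, 79.8 and 81.7 CPM late, with no overlap, and fell 2.47-fold (log2 −1.30 ± 0.17, adjusted p 1.26e-05 by edgeR). miR-23a-5p fell by 0.98 and the abundant miR-23a-3p by 0.30, from a median of 25533 to 21471 CPM. The call for miR-23a-3p was lost without replicate 1 of D6 (edgeR adjusted p 0.105) and without replicate 1 of D16 (edgeR adjusted p 0.0696). The chromosome 9 cluster, inside AOPEP, had 1 of 4 tested arms higher (15.4% of all tested) and a median of 0.49. That arm was miR-23b-3p (chr9:95085265-95085287), with 3182, 4111 and 4542 CPM early and 5800, 6142 and 7963 CPM late. It rose 1.52-fold (log2 0.60 ± 0.10, adjusted p 0.000193 by edgeR) with no overlap, although it differs from miR-23a-3p only towards the 3′ end. Reads may have been split between miR-23a-3p and miR-23b-3p. As the only call there, this arm does not show a rise of the chromosome 9 cluster as a whole. miR-24-3p, encoded in both clusters, fell 1.36-fold (log2 −0.28 without replicate 2 of D0), and over the 10 tested miRNAs of these clusters 5 were lower and 1 higher, a count of higher members that reached 3 with libraries scaled by total counts, without replicate 2 of D0 or replicate 1 of D16.

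The broadest increase was in the 14q32 cluster, an imprinted array in the DLK1-MEG3 region that is expressed from the maternal chromosome and has been linked to stem cell and mesenchymal states. Of 75 listed miRNAs 62 were tested. Of these 29 were higher and none lower, against 15.4% higher among all tested miRNAs, the cluster included. The log2 difference was above 0 for 59 of the 62, with a median of 0.38, against 160 of all 332 tested. The summed level of the cluster was 61093 to 71209 CPM in the early libraries and 84778 to 98347 CPM in the late ones, and it was 63598 to 67277 CPM in Ctrl. Its mean was higher at each successive day, through 72577 CPM at D3 and 86907 at D8 to 97388 CPM at D16. Increases were found on both sides of the array. Between 100869075 and 100884771 on chromosome 14 (the MIR493HG side), 9 of 13 tested arms rose, and between 101022071 and 101066786 (the MEG8 and MEG9 side), 17 of 46 rose. Without D16, 18 of 62 stayed higher, all of them among the 29, and miR-379-5p was lower (log2 −0.41, adjusted p 0.0171 by edgeR).

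**Figure D3:**
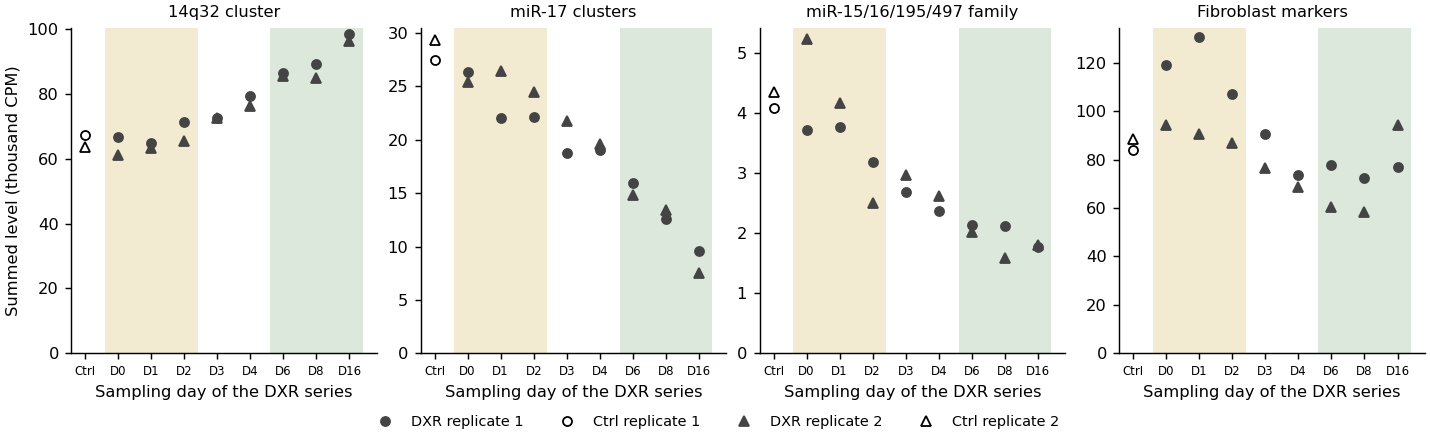
Summed level (y axis, CPM, from 0, tick labels in units given on the axis) of 4 miRNA lists in each DXR and Ctrl library by sampling day (x axis), with circles and triangles for replicates 1 and 2 and shading for the early and late libraries. The 14q32 cluster rises and the miR-17 clusters fall without overlap between the shaded bands, and the wider miR-15/16 family falls, while the fibroblast markers overlap.

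miR-432-5p (chr14:100884496-100884518), which lies beside miR-127, had the largest increase of the abundant cluster members. It had 1930, 2182 and 2560 CPM early and 3325, 4652 and 4919 CPM late and rose 1.93-fold (log2 0.95 ± 0.11, adjusted p 3.86e-06 by edgeR), and Ctrl had 2821 CPM. miR-127-3p (chr14:100883035-100883056), which lies antisense to the retrotransposon-derived gene RTL1 and represses it, had 2560, 2677 and 3571 CPM early and 4534, 4940 and 5179 CPM late, and rose 1.63-fold (log2 0.70 ± 0.11). The early and late libraries were separate for both. miR-329-3p, miR-495-3p, miR-323b-3p, miR-134-5p and miR-493-5p were also separate and rose 1.58-, 1.56-, 1.62-, 1.51- and 1.51-fold. miR-668-3p gave the largest log2 difference of the cluster, 1.00 ± 0.25, at 17.1 to 68.9 CPM early and 57.8 to 161 CPM late, and it was not called without D16 (edgeR adjusted p 0.0816). The most abundant member, miR-409-3p, had 11248, 12408 and 13444 CPM early and 13909, 15216 and 15443 CPM late and rose 1.17-fold (log2 0.23 ± 0.08, adjusted p 0.0427 by edgeR). That call sat at the threshold and was lost when any of 6 single libraries was left out, at edgeR adjusted p of 0.0545 to 0.108. The 3 members with a negative difference were miR-665, miR-379-5p and miR-299-3p (log2 −0.36, −0.24 and −0.12), and none of them passed the test.

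Outside 14q32, miR-664a-3p had the largest increase of all called miRNAs. It lies in an intron of RAB3GAP2 on chromosome 1 (chr1:220200549-220200571, minus strand), inside the small nucleolar RNA SNORA36B, so its reads cannot be told apart from reads of that RNA here. The early libraries had 45.2, 70.1 and 101 CPM and the late ones 179, 230 and 303 CPM, against 25.0 CPM in Ctrl. It rose 3.16-fold (log2 1.66 ± 0.19, adjusted p 3.4e-06 by edgeR), and its other arm miR-664a-5p rose 2.19-fold (log2 1.13 ± 0.24). Both were without overlap. Of the 4 tested miRNAs on the list of those overlapping structural RNAs, these were the 2 that rose, against 15.4% of all tested. The list may not hold every such miRNA. On it, miR-1260b had a log2 difference of 0.23 ± 0.21. miR-374b-5p lies with miR-421 in the lncRNA FTX on chromosome X (chrX:74218587-74218608), and both tested arms there were higher. miR-374b-5p had 309, 331 and 469 CPM early and 537, 656 and 767 CPM late and rose 1.82-fold (log2 0.86 ± 0.13, adjusted p 7.15e-05 by edgeR). It stepped up between D2 (314 CPM) and D3 (779 CPM) and did not climb afterwards. miR-1228-3p, cut from an intron of LRP1, rose 2.54-fold (log2 1.34 ± 0.30) at 8.99 to 21.0 CPM early and 34.0 to 59.0 CPM late, levels near the floor.

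Among the 5 most abundant miRNAs only miR-21-5p and miR-100-5p passed the test, both lower. let-7a-5p, a differentiation-linked repressor of RAS and MYC, had 78370, 131078 and 146709 CPM early and 97800, 130103 and 149272 CPM late, and the 95% interval of its log2 difference was −0.25 to 0.24. miR-125b-5p and miR-222-3p had log2 differences of −0.10 ± 0.08 and 0.10 ± 0.08. miR-100-5p had 77402, 92465 and 98300 CPM early and 70031, 73445 and 78035 CPM late and fell 1.28-fold (log2 −0.36 ± 0.08, adjusted p 0.00263 by edgeR). In the let-7 family, which shares the seed GAGGUAG, 1 of 9 tested was lower (let-7i-5p, log2 −0.61 ± 0.10, no overlap) and none was higher. Among all tested miRNAs 19.6% were lower and 15.4% higher. In the let-7 family 3 were higher when libraries were scaled by total counts or when replicate 1 of D0 was left out. miR-221-3p, which targets the cell-cycle inhibitor CDKN1B, rose 1.22-fold (edgeR adjusted p 0.0217), while miR-221-5p and miR-222-5p fell by 0.35 and 1.43 on the log2 scale. The call for miR-221-3p was lost without replicate 1 of D8 (edgeR adjusted p 0.056), and that for miR-221-5p without any of 5 single libraries (edgeR adjusted p 0.0503 to 0.154).

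In the miR-30 family, of 8 tested, 2 were higher and 1 was lower, against 15.4% higher and 19.6% lower among all tested miRNAs. miR-30a-5p had 15255, 18694 and 25420 CPM early and 23037, 26752 and 27700 CPM late and rose 1.26-fold (log2 0.33 ± 0.11, adjusted p 0.0275 by edgeR), a call that was lost without replicate 2 of D1, replicate 1 of D8, or the whole of D0 (edgeR adjusted p 0.0578, 0.0827 and 0.226). miR-30c-5p, with the same seed, rose 1.34-fold with no overlap. miR-30e-5p, which also carries GUAAACA, fell 1.43-fold (log2 −0.52 ± 0.15, adjusted p 0.0134 by edgeR) and lost its call without replicate 1 of D1 (edgeR adjusted p 0.11). miR-30d-5p had a log2 difference of −0.19 ± 0.09 and did not pass. The miR-29 family, which represses collagens and other matrix genes, had 2 of 4 tested lower, against 19.6% of all tested. miR-29a-3p was down 1.36-fold and miR-29b-1-5p down 1.68-fold, the latter without a call when D16 was left out (edgeR adjusted p 0.25).

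In the remaining lists the counts are to be read against 15.4% higher and 19.6% lower among all tested miRNAs. The miR-99, miR-100 and miR-125 families had 3 of 9 tested lower (miR-125b-1-3p and miR-125a-3p by 0.63 and 0.62, and miR-100-5p), with a median of −0.13. The call for miR-125a-3p was lost without replicate 2 of D0 or replicate 1 of D6 (edgeR adjusted p 0.0692 and 0.0548). The families of miR-130, miR-301 and miR-454 and of miR-148 and miR-152 had 3 of 6 lower and 1 higher, with miR-130b-3p down by 0.89 and miR-152-3p up by 0.37, and miR-148b-3p at −0.13 ± 0.14. Only 1 was lower without replicate 1 of D8. The call for miR-152-3p was lost without D0 or without D16 (edgeR adjusted p 0.0954 and 0.084). The miR-181 family had 1 of 6 lower, miR-181b-5p (log2 −0.28 ± 0.10, edgeR adjusted p 0.0303), whose call was lost without any of 10 single libraries (edgeR adjusted p 0.0686 to 0.183). No member was called among the 6 tested of miR-193 and miR-365, the 8 of the miR-532/500/660 cluster or the 2 of the HOX cluster miRNAs, of which miR-10a-5p, at 33320 to 51708 CPM early and 48754 to 56357 late, had a log2 difference of 0.15 ± 0.09. Of the miRNAs that mark other cell types, miR-486-5p rose 1.43-fold (log2 0.52 ± 0.16, adjusted p 0.0157 by edgeR; 0.0603 without replicate 1 of D8). It carried the rise of the blood list, whose mean was 368 CPM at D0 and 750 CPM at D6, and the part of other cells in it was not tested. The endothelial miR-126-3p and the epithelial miR-200c-3p and miR-200b-3p had log2 differences of 0.20, −0.66 and −0.37 and did not pass.

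**Figure D4:**
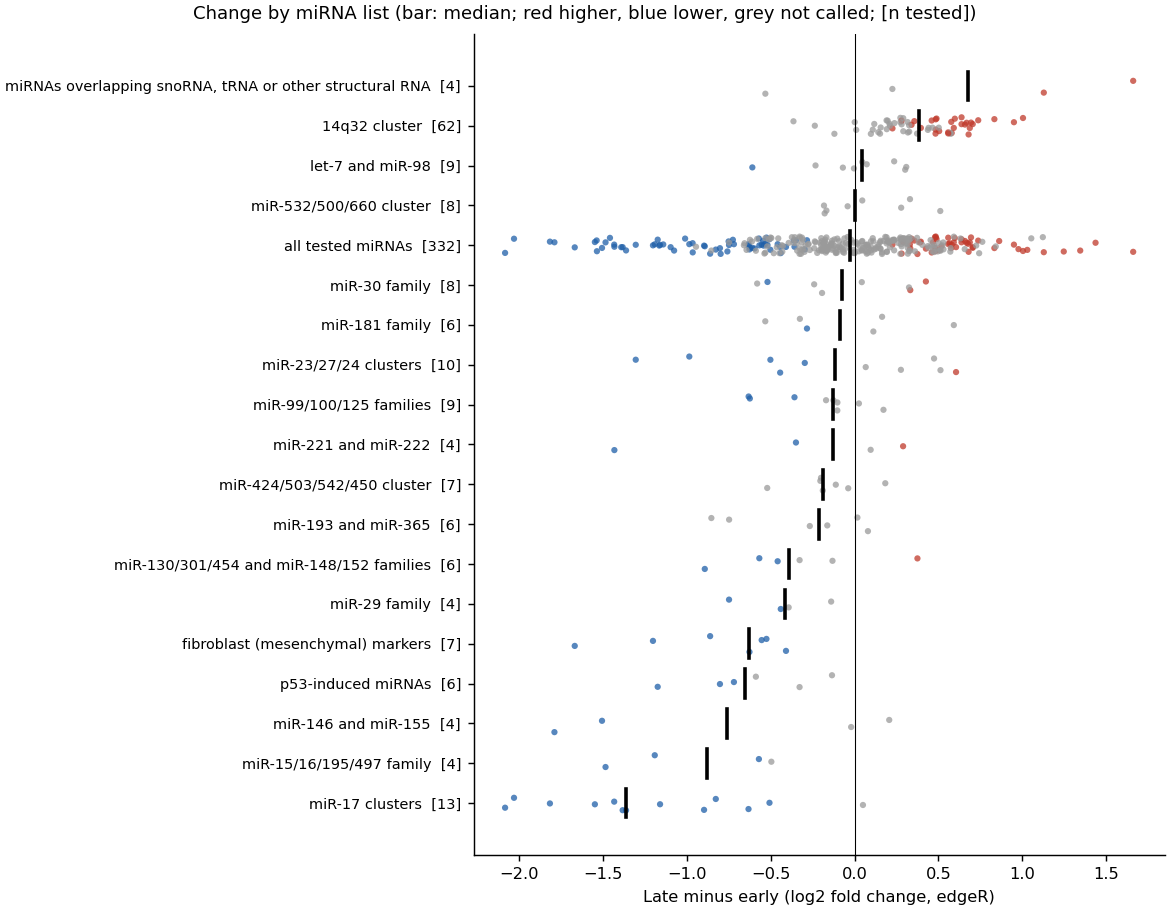
Late minus early log2 fold change (x axis) of each tested member of 18 miRNA lists and of all 332 tested miRNAs (rows, number tested in brackets), with a bar at the median; red points are higher, blue points lower and grey points not called. The miR-17 clusters lie furthest left, with a median of −1.36, and the 14q32 cluster is the large list shifted to the right, with a median of 0.38.

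The D3 and D4 libraries, which took no part in the test, placed most of these differences on a course between the early and late levels. Their mean log2 CPM lay between the early and the late mean for 92 of the 116 called miRNAs (79.3%), against 146 of all 332 (44%). It did so for 37 of the 51 higher and 55 of the 65 lower ones. The called miRNAs were selected for a gap between those means, and a wider gap holds a middle value more easily. The shares are therefore not on equal terms. At D16 the level was further from the early level than at D6 and D8 for 28 of the 51 higher and 35 of the 65 lower miRNAs. Over all 332 tested miRNAs D16 was the extreme of the late days for 158 (47.6%). Set beside untreated cells by mean log2 CPM, the lower miRNAs differed in where Ctrl stood. For 33 of the 65, Ctrl was above both the early and the late mean, for 24 it lay between them, and for 8 it was below both, miR-34c-5p and miR-24-3p among them. For 31 of the 51 higher miRNAs Ctrl was below both means, for 20 it lay between them, miR-432-5p and miR-127-3p among these, and for 0 was it above both. The Ctrl libraries were only read off for this description and were not tested.

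The same late minus early contrast was set against PMD-Sen, using 12 SDS libraries of the same days that share no library with the DXR series. Of 349 miRNAs tested over the 24 libraries, 55 (15.8%) had a late-early change that differed between the series in edgeR's interaction contrast, with DXR above SDS for 26 (7.45%) and below it for 29 (8.31%). Within PMD-Sen, 126 (36.1%) were called late against early. Over the same 24 libraries 95 of the 349 miRNAs were called late against early in DDR-Sen. Of the 349, 45 were called in both series, and all 45 had the same direction. Whether 45 exceeds the number that would be called in both series by chance was not tested. Of the 116 DDR-Sen calls made over the 12 DXR libraries alone, 115 were tested over the 24 libraries. Among them 91 had the same sign in PMD-Sen and 24 differed between the series. The share with the same sign over all 349 miRNAs was not counted. Whether the called miRNAs shared direction more often than the rest was therefore not tested. The early SDS libraries were shallower (81670 to 378490 counts) than the late ones (325894 to 1933442 counts), so depth moved with day in PMD-Sen. In the early SDS libraries a count of 3 corresponded to 7.50 to 33.4 CPM. The part of depth in the difference was not tested beyond thinning all libraries to the lowest total, after which 38 miRNAs differed.

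miR-155-5p fell in both series, by 1.80 on the log2 scale in DDR-Sen and 1.30 in PMD-Sen, and the decrease was larger in DDR-Sen (difference −0.51 ± 0.16, adjusted p 0.0338 by edgeR). miR-92a-3p fell by 1.17 and 1.09 and miR-127-3p had changes of 0.70 and 0.60, with differences of −0.08 ± 0.17 and 0.10 ± 0.15 that did not pass. By contrast miR-143-3p fell by 1.21 in DDR-Sen and had a change of 0.24 ± 0.21 in PMD-Sen (difference −1.45 ± 0.29, adjusted p 0.00275 by edgeR), and miR-432-5p had changes of 0.94 and −0.12 (difference 1.06 ± 0.19, adjusted p 0.00205 by edgeR). miR-374b-5p, miR-664a-3p, miR-7-5p and miR-16-5p likewise changed more in DDR-Sen, with differences of 0.95, 1.24, −1.19 and −0.82. The most negative difference belonged to miR-542-3p (−2.28 ± 0.55, and −4.79 without replicate 1 of SDS D1), which had 52.7 CPM early and 187 CPM late in PMD-Sen and a DDR-Sen change of −0.53. miR-335-3p, from an intron of the imprinted gene MEST, followed with −2.13 ± 0.37, at 47.7 and 167 CPM in PMD-Sen against 213 and 180 CPM in DDR-Sen. miR-34c-5p came next at −1.91 ± 0.42 (edgeR adjusted p 0.00543), with 20.9 and 36.4 CPM in PMD-Sen, but it was −0.43 (edgeR adjusted p 0.724) when libraries were thinned to one depth. At the other end, miR-877-3p, miR-320c and miR-4485-3p had differences of 2.09, 2.04 and 1.93, at group means of 9.53 to 84.6 CPM. In replicate 2 of SDS D0, 3 counts stood for 33.4 CPM. The lowest of the group means and the early PMD-Sen mean of miR-34c-5p lay below that level. The difference of miR-877-3p did not pass without replicate 1 of SDS D0, DXR D2 or DXR D16 (edgeR adjusted p 0.0528 to 0.0783).

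**Figure D5:**
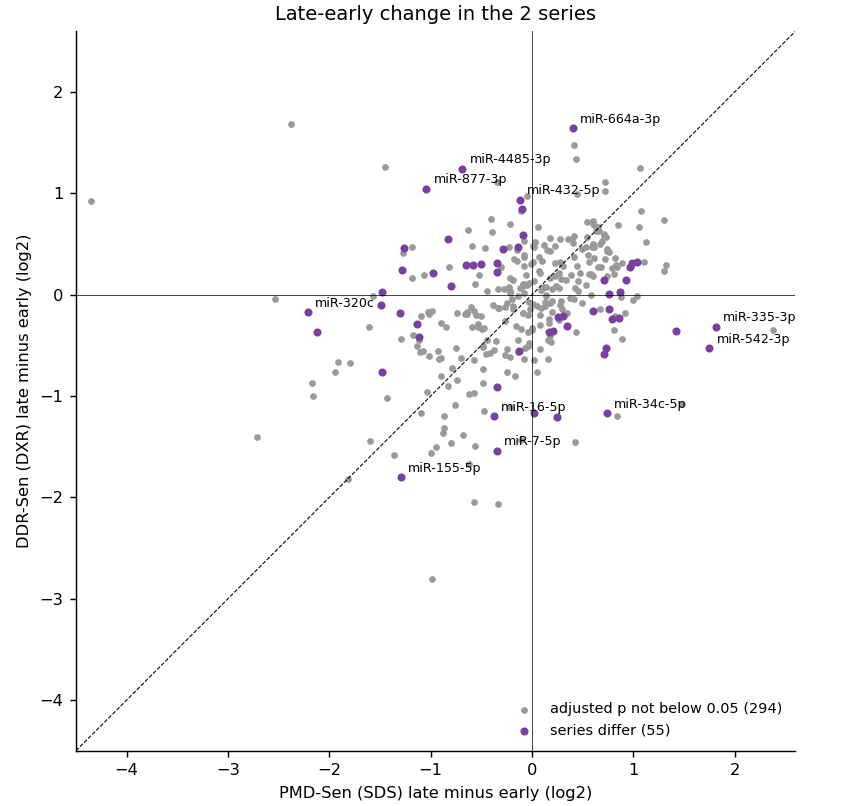
Late minus early log2 fold change of 349 miRNAs in PMD-Sen (x axis) and in DDR-Sen (y axis), from 1 fit over 24 libraries, with the dashed line where both are equal; purple marks the 55 miRNAs whose change differed between the series. miR-155-5p lies in the lower left for both, while miR-335-3p and miR-542-3p lie to the right with PMD-Sen changes of 1.81 and 1.75.

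The balance of the 2 arms of a hairpin was compared as log2 of the 5p over the 3p count, which does not depend on how libraries are scaled. Of 78 hairpins with both arms tested, 0 passed an adjusted p of 0.05 in limma, and 16 had an unadjusted p below 0.05, 3 higher and 13 lower. This count depended on the setting, since 8 of 43 hairpins passed with at least 10 counts in each arm and 5 of 78 passed when the time points were merged into 2 groups. The lowest adjusted p was 0.0670, shared by miR-125a (log2 ratio 7.44 early and 8.23 late), miR-222, miR-221 and miR-132. For miR-221 the ratio was −3.45 early and −4.09 late, in the direction of more 3p.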

How the data were processed

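The authors deposited 1 table of expected counts per mature miRNA for 36 libraries, made by trimming adapters, mapping to GRCh38, aligning to miRBase and counting with the exceRpt small RNA-seq pipeline. Reads that fit several miRNAs were split between them, so 1003 values were not whole, and 18 rows carried joined names of identical miRNAs. The deposited expected counts were rounded to whole numbers. The 12 DXR libraries of D0, D1, D2, D6, D8 and D16 were fitted in edgeR 4.0.16 (R 4.3.3) with TMM scaling, the default low-count filter, 1 mean per time point and the quasi-likelihood test of the mean of D6, D8 and D16 against that of D0, D1 and D2. Benjamini-Hochberg adjusted p below 0.05 was the call. Totals per library are given with the results, and detection floors cover counting error only, while standard errors and the 95% interval come from the fit and include the spread between replicates. CPM values used TMM factors over all 36 libraries. DESeq2 1.42.0 was an alternative, and arm ratios were tested in limma 3.58.1 with 0.5 added to each count. The scripts were tested on simulated data. Named miRNAs were the 12 highest and 12 lowest fold changes among calls without overlap, the 5 most abundant, miR-155-5p, up to 4 per list, and the 3 extremes of the series difference in each direction. Family members, hairpin partners and miRNAs with a called change named beyond these were chosen after their values were seen. The members and lists were chosen with earlier results of these data known. The labels call the replicates biological, and nothing used here says whether they were separate thaws of the strain. With 1 mean per time point, p-values measure the spread between the 2 replicates of a day, not that between days. With the days merged into 2 groups, 44 miRNAs were higher and 66 lower.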

Additional observations from a re-analysis of the deposited data

Results flagged for a closer look

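Within the 6 early or 6 late libraries, 174 groups of values were examined for a library standing apart (Dixon's ratio test at its 95% critical value), and 7 passed, while chance passes about 1 in 20. The ratio of the gap to the range was 0.78 for replicate 2 of D1 in miR-374b-5p (high) and 0.783 for the same library in miR-660-5p. Replicate 2 of D0 stood apart in let-7a-5p (0.676), let-7f-5p (0.824) and miR-181a-2-3p (0.706). The remaining ones were replicate 2 of D16 in let-7b-5p (0.749) and replicate 1 of D2 in miR-10a-3p (0.63).

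The late minus early change differed between DDR-Sen and PMD-Sen for further named miRNAs, given as DDR-Sen minus PMD-Sen on the log2 scale from edgeR's interaction contrast. The difference was positive for miR-877-3p (2.09), miR-320c (2.04), miR-4485-3p (1.93), miR-664a-3p (1.24), miR-1260b (1.19), miR-193a-5p (1.13), miR-432-5p (1.06), miR-374b-5p (0.947), let-7b-5p (0.87), miR-29b-1-5p (0.72) and miR-134-5p (0.673). It was negative for miR-542-3p (−2.28), miR-34a-5p (−0.893), miR-16-5p (−0.82), miR-93-5p (−0.563) and miR-503-5p (−0.521). For miR-34c-5p it was −1.91, but −0.43 (edgeR adjusted p 0.724) when libraries were thinned to the lowest total. It was also negative for miR-335-3p (−2.13), miR-143-3p (−1.45), miR-7-5p (−1.19), miR-155-5p (−0.506), miR-100-5p (−0.539), miR-10a-5p (−0.57) and miR-221-5p (−0.571). In the miR-30 family it was negative for miR-30e-3p (−1.3), miR-30e-5p (−1.25) and miR-30a-5p (−0.709).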

How the results depend on the processing

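Over the other settings, single libraries left out aside, the number of higher miRNAs was 39 to 72 and of lower ones 50 to 66. Leaving out 1 library gave 36 to 64 higher, 53 to 66 lower and 36 to 42 past the study thresholds. Scaling by total counts gave 72 higher and 61 lower (54.1% of calls higher, against 43.97%), and no low-count filter gave 63 and 50 (55.8%), as the median of all tested miRNAs moved from −0.03 to 0.07 and 0.09. No filter gave 64 past the study thresholds. Without D16 there were 39 higher and 51 lower, and 84 of the 116 calls remained. Over all miRNAs the replicate numbers showed no steady pairing of the samples (15 pairs of groups, r of −0.35 to 0.18, 5 over 0.1). The fibroblast marker sum, however, was higher in replicate 1 than in replicate 2 at each day from D0 to D8. With the replicate block 51 were higher and 66 lower. The count differing between the series was 36 to 77 with 1 library left out, the lowest without replicate 1 of DXR D1, and 65 with the block. Arm calls were 8 with at least 10 counts in each arm, 5 with 2 groups, 0 with the block and 0 to 1 with 1 library left out (1 without replicate 1 of D0).

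Of 54 named calls, 560 of 590 values under other settings kept direction and call, 30 kept direction only and 0 reversed, and 33 of 648 values lost the call with 1 library left out. Differences that did not pass the test changed sign. let-7a-5p was 0.0379 with DESeq2, 0.0378 with its size factors, 0.0939 with total counts, 0.11 without a filter, 0.0624 with all 36 libraries, 0.12 without D16, 0.0461 when thinned, and −0.0542 to 0.17 with 1 library left out. let-7f-5p was 0.0310 with total counts, 0.0465 without a filter and −0.11 to 0.10 with 1 library left out. miR-125b-5p was 0.0094 without a filter and miR-1260b −0.13 without D0. Without D16, miR-181a-5p was −0.0057, miR-365a-5p 0.10 and miR-193a-5p 0.18. With 1 library left out, miR-34a-5p was −0.22 to 0.0689, miR-148b-3p −0.20 to 0.0178, miR-320c −0.27 to 0.0197 and miR-660-5p −0.0084 to 0.84. The cause of these changes was not tested. In the early and late DXR libraries, depth limited miRNAs below about 10.2 CPM, the level of 3 counts in the shallowest late library. In the early SDS libraries 3 counts stood for 7.50 to 33.4 CPM.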
